A study of Rattus norvegicus with 69 samples.

Results

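The metabotropic glutamate receptors are a family of G protein-coupled receptors, and 6 of their genes were followed here by every array probe set whose annotated gene symbol was Grm2, Grm3, Grm4, Grm5, Grm7 or Grm8. That rule found 8 probe sets among the 8740 of the array that were not controls: 3 probe sets for Grm7 and 1 for each of the other genes, which makes 6 of the 4737 genes named by a probe set with a single symbol. The RNA came from the CA1 region of the hippocampus of 69 male Fischer 344 rats aged 3 to 5 months, 1 array per rat. Sleep-deprived rats spent 24 hours (24SD, n = 16) or 72 hours (72SD, n = 20) on small platforms over water. Rats of the stress control lived for 24 hours (24NES, n = 10) or 72 hours (72NES, n = 6) in the same kind of chamber with a grid laid across it that left them free to sleep, and home cage rats (HC, n = 17) stayed where they were housed. The rats came in 2 cohorts: cohort 1 held 8 24SD, 8 72SD, 10 24NES, 6 72NES and 5 HC rats, and cohort 2 held 8 24SD, 12 72SD and 12 HC rats. SD and HC rats of cohort 1 had also learned an active avoidance task, and neither the NES rats nor cohort 2 are named among the trained. The SD rats met the chamber as well as the loss of sleep, so their difference from HC covers both.

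These receptors answer glutamate slowly, through G proteins, and shape the fast signal that ionotropic receptors carry. Group I receptors, here Grm5, sit mainly around the postsynaptic density, couple to Gq and phospholipase C, release calcium from internal stores and take part in long-term depression at CA1 synapses. Group II (Grm2 and Grm3) and group III (Grm4, Grm7 and Grm8) couple to Gi and Go, lower cyclic AMP and mostly act as presynaptic brakes on transmitter release. Grm3 is also made by astrocytes.

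The values are MAS5 signals, a summary of the brightness of the probes of a set, linear in brightness and brought to a shared overall level per array. The median signal of an array lay between 404 and 488. The arrays stood apart from the mean of their own group by a root mean square of 0.24 on the log2 scale at the median, with array 58 of 24NES the farthest at 0.59 and array 71 of 72NES next at 0.40. Array 71 also had the highest 3 prime to 5 prime signal ratio of GAPDH, a measure of RNA integrity, at 1.26. Array 32 of 24SD in cohort 2 had a summed signal of 34731 over the choroid plexus and meninges markers, with the other arrays between 3801 and 6491. The cohorts differed widely, since 1914 of 8740 probe sets (21.9%) separated HC rats of cohort 1 from HC rats of cohort 2 at an adjusted p under 0.05. The label CA1 comes from the dissection and the sample titles. Of 8 listed CA1 markers only Pou3f1 and Man1a1 were measured, beside 2 of 5 CA3 markers and 3 of 6 of the dentate gyrus. A check of that label from these arrays thus rests on few genes. No cell type marker on the lists passed the adjusted test in SD or NES against HC.

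All 8 probe sets gave signals above 0 on every array, but only 45 values of the whole series were 0, so this does not show detection. By mean log2 signal Grm8 stood at percentile 27.7 of all probe sets, X96790_at at 42.3 and Grm5 at 45.3. Detection calls are not used here, so whether these signals exceed background was not tested. Over the 69 arrays the lowest, median and highest signals were 47.9, 392 and 693 for Grm5, 191, 457 and 761 for Grm2, and 1329, 2023 and 3030 for Grm3. Among group III, Grm4 had 579, 1654 and 2617, and Grm8 had 44.9, 137 and 267. The 3 Grm7 probe sets had 698, 1052 and 1329 (D16817_at), 212, 650.0 and 1067 (D16817_g_at) and 85.1, 312 and 522 (X96790_at). Probe sets differ in how strongly they bind their target, so these levels do not rank the genes.

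**Figure D1:**
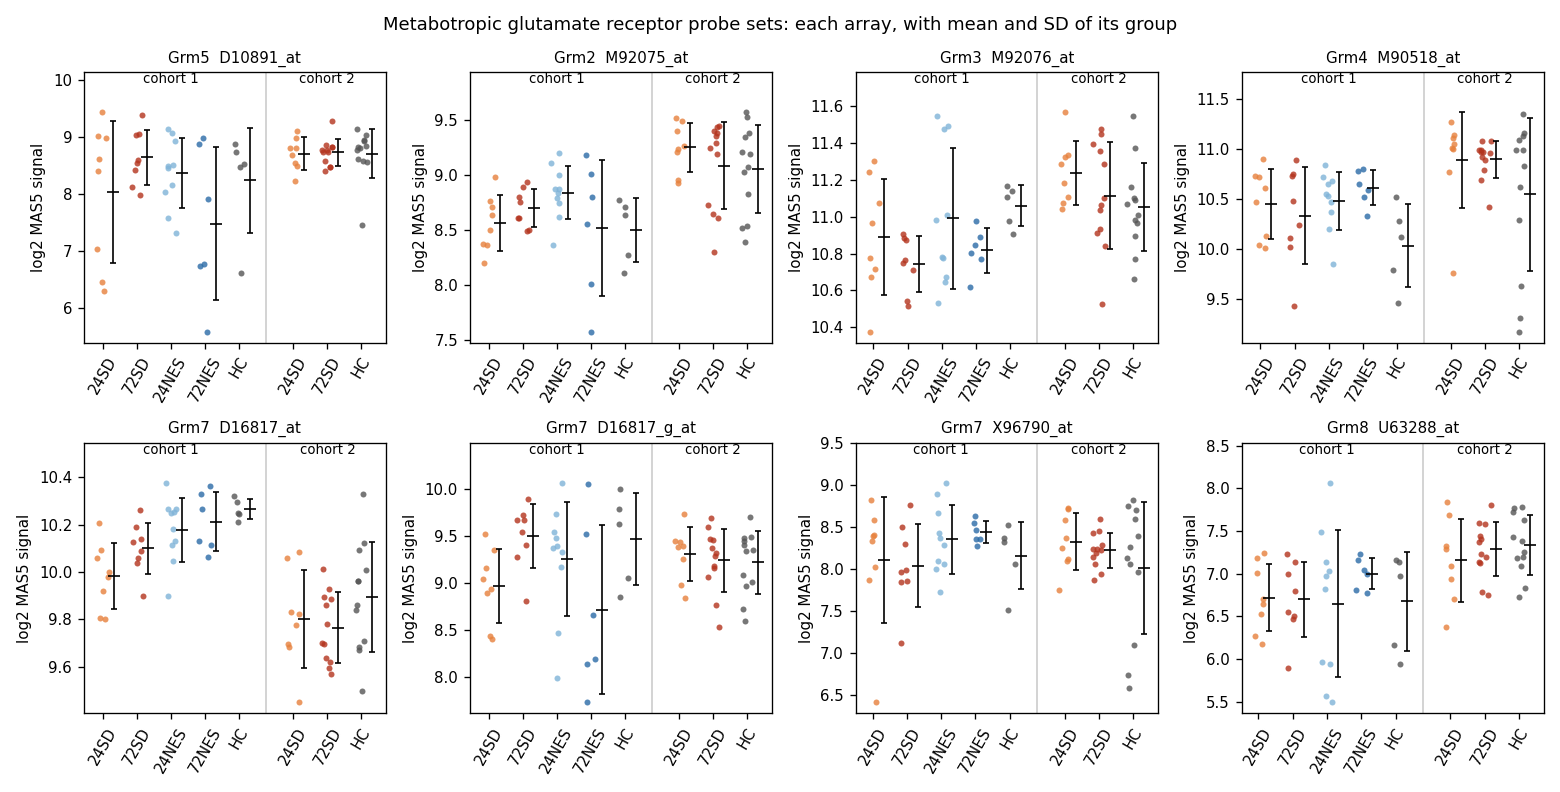
Each point is the log2 MAS5 signal of 1 array, in 1 panel per probe set, with cohort 1 left of the grey line and cohort 2 right of it; bars give the mean and SD of a group. In cohort 1 the 8 24SD arrays of Grm7 D16817_at (signals of 893 to 1182) lie below all 5 HC arrays (1187 to 1280.0), and 3 HC arrays of cohort 2 lie low for Grm4 and Grm7 X96790_at.

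The first question was whether sleep deprivation changed receptor mRNA. Differences were estimated with limma on the log2 scale over the 53 SD and HC arrays, with cohort as a term, with Benjamini-Hochberg adjustment across the 8740 probe sets. By the F-test over both durations, 0 of 8 member probe sets passed an adjusted p of 0.05, against 0.114% of all probe sets (10 of 8740). At an unadjusted p under 0.05, 1 of 8 passed, Grm7 D16817_at, against 10.3% of all. The unadjusted F-test p of Grm4 was 0.056. Over 30 alternative fits, described under processing, the Grm4 p ran from 0.016 to 0.23. It lay under 0.05 in 13 of them, and the p of D16817_at did so in 27. For 24SD against HC the counts were 0 adjusted (0.206% of all) and 2 unadjusted (14.8% of all), and for 72SD against HC they were 0 adjusted (0.0229% of all) and 2 unadjusted (7.16% of all). Grm4 and Grm7 D16817_at were the 2 probe sets in both cases. For 72SD against 24SD no member reached an unadjusted p under 0.05, against 4.11% of all probe sets. The median log2 difference of the 8 was -0.01 at 24SD and 0.07 at 72SD, beside -0.03 and -0.01 over all probe sets. Cage mates lived together in the chambers, but no label pairs them, so every p treats the animals as independent. In tissue blocks of this kind, fewer cells of a type and less RNA per cell cannot be told apart.

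The second question was whether the chamber itself changed them. Over the 21 NES and HC arrays of cohort 1 the F-test passed 0 of 8 member probe sets at an adjusted p of 0.05, as it did 0 of all 8740. At an unadjusted p under 0.05 it passed 1 of 8, Grm4, against 8.63% of all. Grm4 was also the only member at an unadjusted p under 0.05 in 24NES (10.7% of all) and in 72NES (5.03% of all), with 0 members adjusted in either (0.0114% and 0% of all). No member had an NES group without overlap with HC (0.515% of all in 24NES and 1.01% in 72NES). For 72NES against 24NES the count was 0 at both thresholds, against 7.46% of all unadjusted. SD and NES in cohort 1 were set against the same 5 HC arrays. These HC rats were trained and the NES rats are not named among the trained, so chamber and training cannot be told apart in these contrasts.

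**Figure D2:**
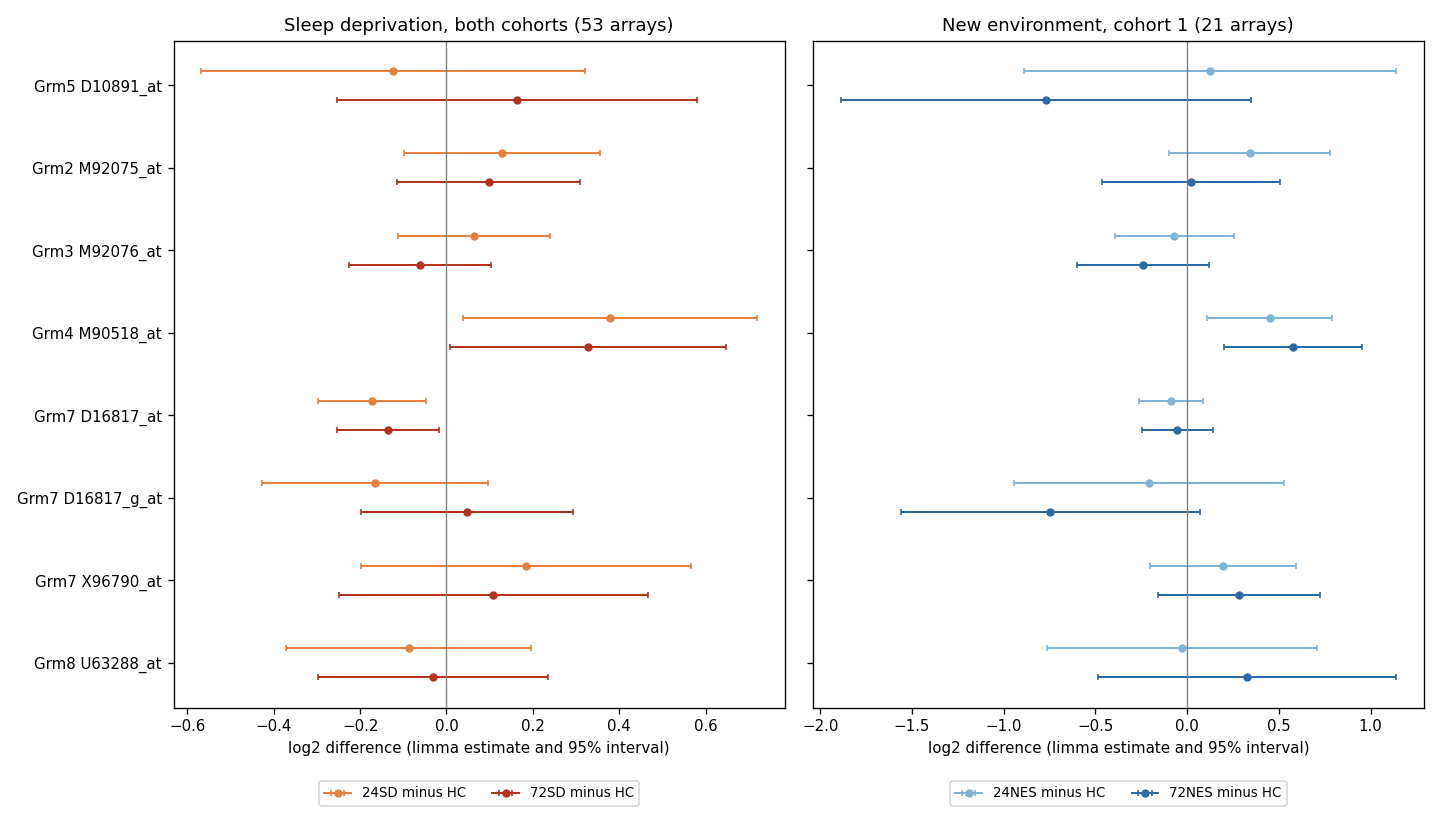
Points are limma's log2 differences from HC with 95% intervals, for 24SD and 72SD over 53 arrays of both cohorts on the left and for 24NES and 72NES over 21 arrays of cohort 1 on the right; the horizontal scales differ. The intervals of Grm4 lie above 0 in all 4 comparisons and those of Grm7 D16817_at below 0 in 24SD and 72SD, before any adjustment for the number of probe sets.

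Grm5, the group I receptor of hippocampal pyramidal cells, was widely scattered in cohort 1. Its lowest, median and highest signals were 78.6, 367 and 693 in 24SD, 253, 380 and 671 in 72SD, 159, 354 and 565 in 24NES and 47.9, 174 and 506 in 72NES, against 98.4, 355, 367, 426 and 470.3 in the 5 HC arrays of that cohort. Every treated group overlapped HC, and the low signals came from 3 arrays of 24SD (78.6 to 132), 3 of 72NES (47.9 to 109) and 1 of HC (98.4). In cohort 2 the signals were close together, at 299, 430.4 and 555 in 24SD and 341, 432 and 627 in 72SD, against 176, 452 and 562 in HC. The log2 differences from HC were -0.12 ± 0.22 (SE) in 24SD and 0.16 ± 0.21 in 72SD, with adjusted limma p of 0.84 and 0.89. In 72NES the difference was -0.77 ± 0.54 (adjusted p = 0.97), with a 95% interval from -1.89 to 0.35. It was -0.39 without array 71, which had the lowest Grm5 signal of the 69 arrays, and -1.18 without HC replicate 1 (unadjusted p = 0.037, adjusted p = 0.91).

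Grm2, a presynaptic group II receptor that restrains glutamate release, had overlapping groups throughout. In cohort 1 its lowest, median and highest signals were 295, 381 and 507 in 24SD, 359.9, 411 and 492 in 72SD, 331, 462 and 591 in 24NES and 191, 412 and 581 in 72NES, against 276, 309.5, 398, 419 and 439 in the 5 HC arrays. Of the 10 24NES arrays, 9 lay above the HC mean. In cohort 2 they were 489, 609 and 733 in 24SD and 316, 617 and 696 in 72SD, against 337, 563 and 761 in HC. The log2 differences from HC were 0.13 ± 0.11 in 24SD, 0.10 ± 0.11 in 72SD, 0.34 ± 0.21 in 24NES and 0.02 ± 0.23 in 72NES, with adjusted limma p between 0.59 and 0.998. The 95% interval of the 24SD difference ran from -0.10 to 0.36.

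Grm3, the group II receptor shared by neurons and astrocytes, had mean SD differences from HC of opposite sign in the 2 cohorts. The SD arrays overlapped HC in all but 72SD of cohort 1. In cohort 1 its lowest, median and highest signals were 1464, 1730.2 and 1918 in 72SD, against 1922, 2013, 2206, 2258 and 2298 in HC. All 8 72SD arrays of cohort 1 thus lay below all 5 HC arrays, by a narrow gap, where 0.503% of all probe sets did not overlap in that contrast, 0.195% with the SD group lower. The 24SD arrays of cohort 1 had 1329, 1877 and 2527 and overlapped HC. In cohort 2 the signals were 2107, 2410.0 and 3030 in 24SD and 1477, 2167 and 2851 in 72SD, against 1622, 2103 and 2987 in HC. There the groups overlapped, with 1 24SD array above and 1 72SD array below all 12 HC arrays, and 7 of 8 24SD arrays lay above the HC mean. The 72SD minus HC difference was -0.32 ± 0.14 in cohort 1 (unadjusted p = 0.024, adjusted p = 0.50) and 0.06 ± 0.10 in cohort 2 (adjusted p = 0.93). The difference between the cohorts was -0.38 ± 0.17 for 72SD (unadjusted p = 0.028, adjusted p = 0.57) and -0.36 ± 0.17 for 24SD (adjusted p = 0.69), so it did not pass the adjusted test. Over both cohorts the differences were 0.06 ± 0.09 at 24SD and -0.06 ± 0.08 at 72SD. In NES the signals were 1482, 1891 and 2991 at 24 hours and 1574, 1815 and 2017 at 72 hours, all 6 72NES arrays lying below the HC mean, with differences of -0.07 ± 0.16 and -0.24 ± 0.17. Of 8 astrocyte markers measured, 0 passed an adjusted p of 0.05 in 24SD or 72SD, and their summed signal was 87534 to 106308 in 72SD of cohort 1, against 92563 to 100505 in HC of cohort 1. Their part in the Grm3 values was not tested.

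Grm4, a group III presynaptic receptor known best from cerebellar and basal ganglia synapses, had the largest positive difference of the 8 probe sets in 24SD, 72SD, 24NES and 72NES. In cohort 1 its lowest, median and highest signals were 1035, 1496 and 1916 in 24SD, 690.4, 1325 and 1909 in 72SD, 923, 1494 and 1833 in 24NES and 1291, 1574 and 1791 in 72NES, against 706, 887, 1117, 1248 and 1469 in HC. The treated groups overlapped HC, although 5 of the 6 72NES arrays lay above the highest HC array. In cohort 2 they were 871, 2096 and 2469 in 24SD and 1375, 2000.4 and 2176 in 72SD, against 579, 1932 and 2617 in HC. Here the HC group held the highest array as well as 3 low ones (579, 636 and 798 in HC replicates 10, 17 and 15), and the medians of SD and HC lay close together. The log2 difference from HC was 0.38 ± 0.17 in 24SD (unadjusted p = 0.030, adjusted p = 0.28) and 0.33 ± 0.16 in 72SD (unadjusted p = 0.044, adjusted p = 0.68). It was 0.45 ± 0.16 in 24NES (unadjusted p = 0.012, adjusted p = 0.30) and 0.58 ± 0.18 in 72NES (unadjusted p = 0.0046, adjusted p = 0.84). Set against the HC median, which the low HC arrays move less than the mean, 11 of 16 SD and 15 of 16 NES arrays of cohort 1 and 14 of 20 SD arrays of cohort 2 lay above it.

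The Grm4 differences rested in part on single HC arrays. Leaving out HC replicate 1, 10, 15 or 17 gave 24SD differences of 0.33, 0.30, 0.33 and 0.31, with unadjusted p of 0.059, 0.064, 0.056 and 0.062. For 72SD the unadjusted p was 0.082, 0.064, 0.060, 0.10, 0.088 and 0.10 without HC replicate 1, 3, 6, 10, 15 or 17, with the smallest difference, 0.25, without HC replicate 10. Within cohort 1 the 24SD difference was 0.42 ± 0.28 and within cohort 2 it was 0.34 ± 0.22, and neither passed on its own. The log2 means of cohort 2 were 10.55 in HC, 10.89 in 24SD and 10.90 in 72SD. The medians, which the low HC replicates 10, 15 and 17 move less, were 10.91, 11.03 and 10.97. How far the sign in cohort 2 depends on these arrays together was not tested. The 24NES difference was 0.31 (unadjusted p = 0.071) without HC replicate 1, the lowest Grm4 array of its group. The GAPDH ratio was 0.97 to 1.05 in HC replicates 10, 15 and 17 and 1.02 to 1.12 in the other 9 HC arrays of cohort 2. Dlg4, the postsynaptic scaffold PSD-95, had the largest correlation with Grm4 (Pearson's r = 0.76) of 4730 genes searched over the same arrays. Low Dlg4 where Grm4 is low is therefore no separate observation. These 3 arrays read 1353, 1596 and 2497 for Dlg4, with the other 9 between 3521 and 5869. Their part in the difference was not tested beyond leaving out 1 array at a time.

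Grm7, a group III receptor placed at the release site itself, had 3 probe sets, which are described one by one. For D16817_at the cohort 1 signals were 893, 1016 and 1182 in 24SD, against 1187, 1215, 1219, 1258 and 1280.0 in HC. All 8 24SD arrays lay below all 5 HC arrays, where 0.938% of all probe sets did not overlap in that contrast, 0.4% with the SD group lower. The 72SD arrays of cohort 1 had 955, 1105 and 1227, and overlapped HC. In cohort 2 the signals were 698, 892 and 1087 in 24SD and 759.9, 855 and 1033 in 72SD, against 722, 963 and 1287 in HC, with wide overlap. HC replicates 10, 15 and 17, the low arrays of Grm4, were the 3 highest D16817_at arrays of that HC group (1114, 1092 and 1287). The log2 difference was -0.17 ± 0.06 in 24SD (unadjusted p = 0.0080, adjusted p = 0.18) and -0.14 ± 0.06 in 72SD (unadjusted p = 0.025, adjusted p = 0.63), and 31 of 36 SD arrays lay below the HC mean of their cohort. Without HC replicate 17 these were -0.15 (unadjusted p = 0.017) and -0.11 (unadjusted p = 0.056). Within cohorts the 24SD difference was -0.28 ± 0.10 in cohort 1 and -0.09 ± 0.08 in cohort 2, and the difference between the cohorts was -0.19 ± 0.13 (adjusted p = 0.83). Apart from replicates 10, 15 and 17, the HC arrays of cohort 2 lay between 722 and 1029, inside the 24SD range. How far the cohort 2 decrease depends on these 3 arrays together was not tested.

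In NES D16817_at had 955, 1189 and 1329 at 24 hours and 1071, 1176 and 1318 at 72 hours. Of these, 8 of 10 24NES and 3 of 6 72NES arrays lay below the HC mean, and 5 24NES and 3 72NES arrays lay below all 5 HC arrays. The differences from HC were -0.09 ± 0.08 and -0.05 ± 0.09, with adjusted p of 0.75 and 0.99.

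The D16817_g_at probe set of Grm7 had cohort 1 signals of 337, 508 and 731 in 24SD, 447, 779 and 946 in 72SD, 254, 668 and 1067 in 24NES and 212, 348 and 1058 in 72NES, against 461, 531, 788, 879.5 and 1022 in HC. The 72NES group was split, with 4 arrays at 405 or below and 2 at 735 and 1058. In cohort 2 the signals were 457, 667 and 849 in 24SD and 369.7, 631 and 825 in 72SD, against 387, 651 and 832 in HC. Over both cohorts the differences from HC were -0.17 ± 0.13 in 24SD (adjusted p = 0.58) and 0.05 ± 0.12 in 72SD (adjusted p = 0.94). The 24SD difference was -0.50 ± 0.20 in cohort 1 (unadjusted p = 0.016, adjusted p = 0.29) and 0.09 ± 0.16 in cohort 2 (adjusted p = 0.87). The interaction of cohort with the SD response gave an unadjusted p of 0.027 and an adjusted p of 0.66 for it, the only member of 8 at an unadjusted p under 0.05 (6.76% of all). The 72NES difference was -0.75 ± 0.39 (unadjusted p = 0.070, adjusted p = 0.97).

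The X96790_at probe set of Grm7 had cohort 1 signals of 85.1, 331 and 454 in 24SD, 139, 252 and 435 in 72SD, 212, 321 and 522 in 24NES and 309.7, 343 and 397 in 72NES, against 183, 267, 321, 332 and 369 in HC. In cohort 2 they were 215, 318 and 425 in 24SD and 234, 301 and 389 in 72SD, against 96.0, 295 and 454 in HC. The groups overlapped in every contrast, with the 72NES arrays closest together. The differences from HC were 0.18 ± 0.19 in 24SD and 0.11 ± 0.18 in 72SD, with adjusted p of 0.69 and 0.91, and 0.10 and 0.02 without HC replicate 17. Within cohort 1 they were -0.05 ± 0.31 and -0.12 ± 0.31, so the sign was not settled. Array 32, with the high choroid plexus signal, was the highest 24SD array of cohort 2 for all 3 Grm7 probe sets (1087, 849 and 425). Without it the 24SD differences were -0.20 for D16817_at (unadjusted p = 0.0023, adjusted p = 0.15), -0.21 for D16817_g_at (adjusted p = 0.49) and 0.15 for X96790_at (adjusted p = 0.79). The 72SD minus 24SD difference of D16817_g_at then reached an unadjusted p of 0.043 (adjusted p = 0.9994), and its interaction with cohort an unadjusted p of 0.058.

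Across the 69 arrays, centred on the mean of their group and cohort, the Grm7 probe sets showed little relation to each other, with no p under 0.05. Pearson's r was 0.18 between D16817_at and D16817_g_at (Spearman's rho = 0.19, permutation p = 0.15 and 0.11), -0.10 between D16817_at and X96790_at (rho = -0.02, permutation p = 0.40 and 0.89) and 0.05 between D16817_g_at and X96790_at (rho = 0.08, permutation p = 0.71 and 0.49). In cohort 1 the D16817_at and X96790_at pair had r = 0.30 and in cohort 2 r = -0.36. Among the members X96790_at was closest to Grm4 instead, with r = 0.54 and rho = 0.46. The permutation p of that r was 1e-05, the smallest that 100000 permutations can give, and 0.00028 after adjustment over the 28 pairs of members compared. The r was 0.47 in cohort 1 and 0.61 in cohort 2, and 0.42 without the 2 arrays farthest from the Grm4 median. HC replicates 10, 15 and 17 were low in both, at 137, 106 and 96.0 for X96790_at with the other 9 HC arrays of cohort 2 between 250.4 and 454. Outside this pair, r ran from -0.28 (Grm4 with D16817_at, permutation p = 0.020, adjusted p = 0.19) to 0.32 (D16817_at with Grm8, permutation p = 0.0085, adjusted p = 0.12). Genes that are not members came closer to X96790_at than Grm4 did, among them Scn8a (r = 0.79), Acvr1 (0.75) and Slc12a5 (0.75).

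**Figure D3:**
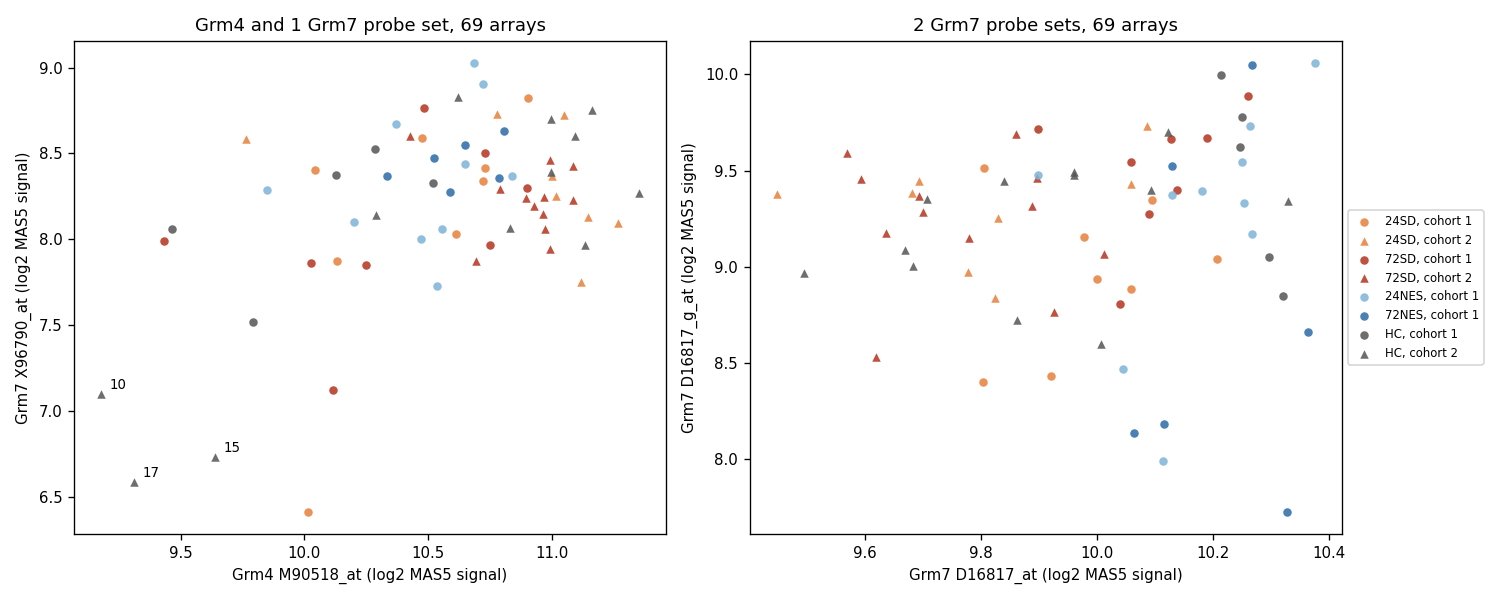
Each point is 1 of 69 arrays, with log2 MAS5 signals on both axes: Grm4 against Grm7 X96790_at on the left, and Grm7 D16817_at against D16817_g_at on the right. The 3 numbered HC arrays of cohort 2 (10, 15 and 17) lie at the lower left of the Grm4 panel, and the 2 Grm7 probe sets show no common trend (r = 0.18 after centring).

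Grm8, a group III receptor of scattered presynaptic terminals and interneurons, had overlapping groups throughout. In cohort 1 its signals were 72.5, 102 and 151 in 24SD, 59.6, 103 and 151 in 72SD, 44.9, 119 and 267 in 24NES and 109, 130.0 and 150.3 in 72NES, against 61.2, 71.8, 126, 141 and 143 in HC. In cohort 2 they were 83.1, 146 and 229 in 24SD and 107, 158 and 224 in 72SD, against 106, 159.8 and 220.0 in HC. Its 24NES arrays were the most spread of these groups, and the highest (267) was array 58, the array farthest from its group. The 24NES difference was -0.19 without it. The differences from HC were -0.09 ± 0.14 in 24SD, -0.03 ± 0.13 in 72SD, -0.03 ± 0.35 in 24NES and 0.33 ± 0.39 in 72NES, with adjusted limma p between 0.82 and 0.99. The 95% interval of the 72NES difference was wide, from -0.49 to 1.14, and that of the 24SD difference ran from -0.37 to 0.20.

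The third question was whether SD and NES differed at matched duration in cohort 1, where the SD rats were trained and the NES rats are not named among the trained. For 24SD against 24NES, 0 of 8 member probe sets passed an adjusted p of 0.05 (0.0114% of all) and 1 an unadjusted p of 0.05 (5.97% of all). That was Grm7 D16817_at, at -0.19 ± 0.07 (unadjusted p = 0.0059, adjusted p = 0.60), with arrays of both groups overlapping between 955 and 1182. No member had groups without overlap in either contrast (0.0114% and 0.0801% of all). Of the 8 differences of 24SD from 24NES, 7 were negative and Grm8 was positive at 0.07 ± 0.27. Of all probe sets 45.8% were positive there, and 3 of the 8 probe sets belong to Grm7. For 72SD against 72NES, 0 of 8 passed adjusted (0% of all) and 2 unadjusted (6.69% of all). These were Grm5 at 1.17 ± 0.49 (unadjusted p = 0.023, adjusted p = 0.73) and Grm7 D16817_g_at at 0.78 ± 0.30 (unadjusted p = 0.013, adjusted p = 0.70). Without array 71 of 72NES they were 0.79 (unadjusted p = 0.11) and 0.67 (unadjusted p = 0.040). Grm4, whose differences from HC had the same sign in SD and NES, did not differ detectably between them, at -0.03 ± 0.17 for 24 hours and -0.28 ± 0.19 for 72 hours, with 95% intervals from -0.37 to 0.31 and from -0.67 to 0.11.

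The fourth question was whether cohort mattered. Within cohort 1, 2 of 8 member probe sets reached an unadjusted p under 0.05 in 24SD (D16817_at and D16817_g_at, 11.1% of all) and 1 in 72SD (Grm3, 8.76% of all). Within cohort 2 the counts were 0 in 24SD (9.28% of all) and 0 in 72SD (6.26% of all). The difference between the cohorts in the SD response itself passed the adjusted F-test in 0 of 8 members (0.0343% of all). By duration it reached an unadjusted p under 0.05 in 2 members for 24SD (Grm3 and D16817_g_at, 7.19% of all) and 1 for 72SD (Grm3, 7.65% of all). Among HC rats, 3 of 8 member probe sets passed an adjusted p of 0.05 when cohort 1 was set against cohort 2 (21.9% of all), the same 3 that reached an unadjusted p under 0.05 (33.4% of all). Grm2 was lower in cohort 1 than in cohort 2 by -0.55 ± 0.17 on the log2 scale (adjusted p = 0.015), Grm8 by -0.66 ± 0.22 (adjusted p = 0.022), and Grm7 D16817_at was higher by 0.37 ± 0.09 (adjusted p = 0.0029). The Grm2 call was lost without HC replicate 2 or 3 (adjusted p = 0.057 and 0.071), and the Grm8 call without HC replicate 3 or 5 (adjusted p = 0.099 and 0.14). Grm4 (-0.51 ± 0.26, adjusted p = 0.16), Grm5 (-0.47 ± 0.33, adjusted p = 0.34), D16817_g_at (0.25 ± 0.19, adjusted p = 0.37) and X96790_at (0.15 ± 0.29, adjusted p = 0.76) did not pass, and Grm3 stood at 0.01 ± 0.13. HC rats of cohort 1 were trained and those of cohort 2 are not named among the trained, so training and any other difference between the cohorts cannot be told apart. Both CA1 markers measured were lower in cohort 1 and both CA3 markers higher, with a summed CA1 signal of 1998 to 2875 in HC of cohort 1 against 3279.7 to 6352 in HC of cohort 2, and a summed CA3 signal of 4276 to 6469 in HC of cohort 1 against 3024 to 5295 in HC of cohort 2. Other marker lists also had adjusted calls between HC of the cohorts. In cohort 1, 3 of 6 general neuron markers were higher and 1 lower, and 2 of 7 interneuron markers were lower. Of 3 dentate markers 1 was higher and 1 lower. Astrocytes and endothelium had 1 lower each, and choroid plexus and blood 1 higher each. The 10th percentile of all signals was 29.8 to 34.9 in HC of cohort 1 against 24.3 to 33.5 in HC of cohort 2. Their part in the receptor differences was not tested.

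**Figure D4:**
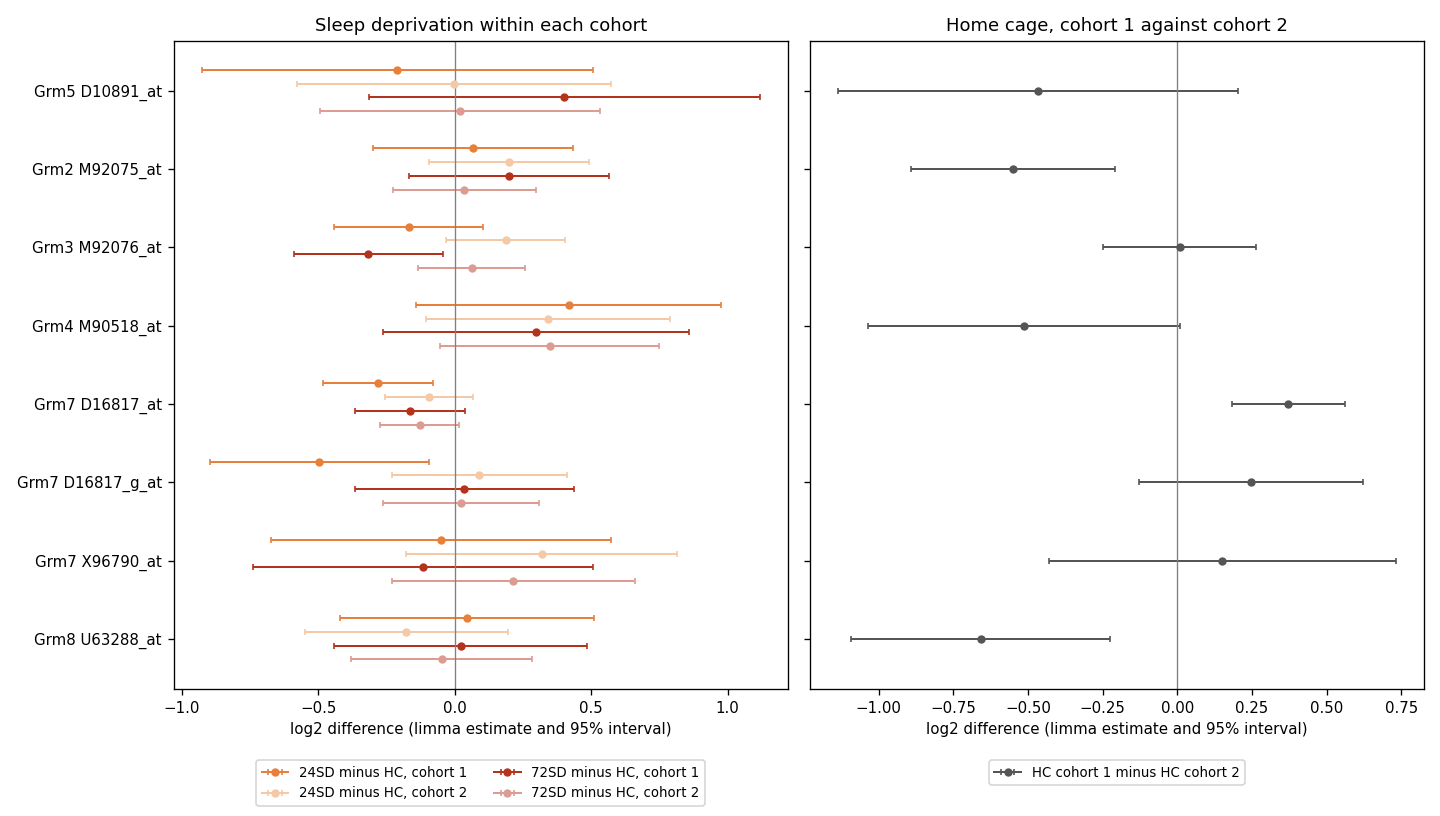
Points are limma's log2 differences with 95% intervals: on the left 24SD and 72SD minus HC within each cohort, on the right HC of cohort 1 minus HC of cohort 2. The points of Grm3 lie below 0 in cohort 1 and above 0 in cohort 2 at both durations. Those of Grm4 lie above 0 and those of Grm7 D16817_at below 0 in both cohorts. In cohort 2, HC replicates 10, 15 and 17 are the lowest HC arrays of Grm4 and the highest of D16817_at. Their joint part in these points was not tested. On the left the intervals leave out 0 only for D16817_at and D16817_g_at at 24SD and Grm3 at 72SD, all in cohort 1. On the right the intervals of Grm2, Grm8 and D16817_at leave out 0.

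For each gene the most alike genes were sought by Pearson's r with its brightest probe set over the 69 centred arrays, among 4730 other genes, as a description. Grm4 was closest to Dlg4 (r = 0.76), Fabp6 (0.75) and Nr1d1 (0.75). Grm5 was closest to Syt1 (0.67), a calcium sensor of vesicle release, Nsf (0.65), which takes SNARE complexes apart, and Bmp3 (0.59). Grm7 D16817_at was closest to Kit (0.66), Nras (0.60) and Faim2 (0.55), and Grm3 to Paqr3 (0.61), Psma6 (0.60) and Clcn3 (0.60). Grm8 (Obp3 at 0.57, Ephx2 at 0.53, Sod3 at 0.51) and Grm2 (Drd1 at 0.52, Il1rap at 0.49, Btg3 at 0.48) had weaker partners. All probe sets of an array share its RNA sample and its scaling.

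The genes that work with these receptors were counted from lists, each by its brightest probe set. No listed gene passed an adjusted p of 0.05 in SD or NES against HC, and the unadjusted counts stand beside 10.3% of all probe sets in SD and 8.63% in NES. The Gq side of group I signalling (7 measured) had 2 genes at an unadjusted F-test p under 0.05 in SD, both with a positive mean difference over the durations: Prkcb, a protein kinase C, at 0.13 ± 0.05 in 24SD (adjusted p = 0.18) and Plcb1, a phospholipase C, at 0.12 ± 0.06 (adjusted p = 0.30). The Gi and Go side of groups II and III (14 measured) had 3, all negative at 24SD: Adcy5, an adenylyl cyclase, at -0.16 ± 0.05 (adjusted p = 0.14), Kcnj9, a subunit of G protein-gated potassium channels, at -0.37 ± 0.14 (adjusted p = 0.19), and Cacna1a, the pore of P/Q-type calcium channels, at -0.23 ± 0.09 (adjusted p = 0.20). Of those 14, 12 had a negative mean difference over both durations, with a list median of -0.10 beside -0.02 over all probe sets, of which 56.4% were negative. Scaffold genes (10 measured) had 1 in each direction, Dlg4 at 0.32 ± 0.13 in 72SD (adjusted p = 0.56) and Shank2, a postsynaptic scaffold, at -0.37 ± 0.16 in 24SD (adjusted p = 0.26). HC replicates 10, 15 and 17 of cohort 2, low for Grm4, were low for Dlg4 too, at 1596, 2497 and 1353. Their part in the Dlg4 difference was not tested. Glutamate supply and removal (6 measured) had 1, Slc17a7, the vesicular glutamate transporter of these synapses, at -0.31 ± 0.12 in 72SD (adjusted p = 0.56). Desensitization (6 measured) and plasticity genes downstream (6 measured) had 0.

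In NES the F-test gave an unadjusted p under 0.05 for 2 genes of the group I list, the phospholipase C gene Plcb4 (0.37 ± 0.21 in 24NES and -0.11 ± 0.23 in 72NES) and the protein kinase C gene Prkca (0.29 ± 0.31 in 24NES and -0.57 ± 0.35 in 72NES). It did so for the postsynaptic scaffolds Dlg4 (0.39 ± 0.15 in 72NES) and Homer3 (-0.52 ± 0.21 in 72NES), both with an adjusted p of 0.93, and for 2 genes of the group II and III list. These were Adcy5, at -0.33 ± 0.08 in 24NES (adjusted p = 0.13), and Gnai2, a Gi subunit, at -0.40 ± 0.13 (adjusted p = 0.25). Rgs4, which shortens G protein signals, was at -0.59 ± 0.22 in 24NES (adjusted p = 0.30), and Slc1a2, the main glial glutamate transporter, at -0.51 ± 0.16 in 72NES (adjusted p = 0.84). Between HC rats of the cohorts, 18 of the 50 listed genes measured (36%) passed the adjusted test, beside 21.9% of all probe sets. The listed genes stand by their brightest probe set, so the 2 shares cover unlike sets.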

How the data were processed

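CA1 RNA of 69 rats was hybridized to 1 Affymetrix rat array each. The deposited values are intensity signals that the authors made with MAS5 (version not given in the sources used here), 1 for each probe set, linear in brightness and scaled array by array; they are neither log transformed nor standardized within cohort. Of 8799 probe sets, 59 are controls. Symbols came from the platform annotation, and the 8 member probe sets matched the RefSeq gene table. Signals were floored at 1 and log2 transformed. limma 3.58.1 (R 4.3.3; lmFit, eBayes) fitted SD over 53 arrays with cohort as a term, NES over 21 arrays and SD against NES over 37 arrays of cohort 1, and the interaction with cohort, with Benjamini-Hochberg adjustment over 8740 probe sets. This replaces the study's filtered 1-way ANOVA on standardized signals, because detection calls are not used here. That ANOVA without the study's filter, over all 8740 probe sets, was an alternative. Correlations used 100000 permutations. Alternatives were quantile normalization, median centring, a floor of 50, the upper 50% of signals, robust eBayes, the GAPDH ratio as a covariate, cohort left out, each cohort alone and single arrays left out; leaving out HC arrays of cohort 2, array 32 or array 58 was added after seeing the data. All members are described, pathway genes by the smallest F-test p of a list (up to 3), and alike genes by the 3 largest r. Members and lists were chosen with earlier results of these data known. The number of arrays limits the precision. The tests were tried on simulated data. Figures were drawn with Python 3.11.15 and matplotlib 3.10.9.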

Additional observations from a re-analysis of the deposited data

Results flagged for a closer look

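3 member values lay far from the other arrays of their group, by the gap to the nearest array as a share of the group's range, among 48 groups of 4 to 10 arrays examined. Chance flags about 1 in 20 such groups. Grm5 read 98.4 in HC replicate 1 of cohort 1, with the other 4 HC arrays between 355 and 470.3. Grm4 read 871 (870.6) in 24SD replicate 30 of cohort 2, with the other 7 between 1755 and 2469, and that array had a GAPDH ratio of 1.18. Grm7 X96790_at read 85.1 in 24SD replicate 23 of cohort 1, with the other 7 between 234 and 454.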

How the results depend on the processing

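No member probe set passed the adjusted test in any of the 219 alternative fits of the SD, NES, SD against NES and cohort-response comparisons. Of 1357 log2 differences under alternatives, 28 changed sign and 4 lost their call. In cohort 1 alone the 24SD minus HC difference was -0.17 for Grm3, -0.0514 for Grm7 X96790_at and 0.0445 for Grm8, the 72SD minus HC difference was -0.12 for X96790_at and 0.0218 for Grm8, and 72SD minus 24SD was 0.13 for Grm2 and -0.0227 for Grm8. In cohort 2 alone, 24SD minus HC was 0.0897 for Grm7 D16817_g_at, 72SD minus HC was 0.0623 for Grm3, and 72SD minus 24SD was 0.0065 for Grm4, -0.0355 for D16817_at and -0.0669 for D16817_g_at. With cohort left out, 72SD minus 24SD was 0.0215 for Grm2 and 0.0002 for Grm4. Leaving out single arrays gave -0.0046 (without 24SD replicate 30) to 0.0616 for Grm8 in it. Against HC it gave -0.28 (without HC replicate 1) to 0.28 for Grm5 and -0.21 to 0.0925 for Grm8 in 24NES, and -0.0758 to 0.1247 for Grm2 in 72NES. The sign of these small differences is thus not settled, and the cause was not tested. Between HC rats of the cohorts, single arrays moved Grm3 from -0.0276 to 0.0525, Grm2 from -0.62 to -0.45 and Grm8 from -0.78 to -0.47, and the number of members called from 1 (without HC replicate 3) to 3. The r of D16817_g_at with X96790_at was -0.0077 without centring. Over all probe sets, calls ranged from 0 (cohort 2 alone) to 172 (the methods' ANOVA with values removed) beside 10 for the SD F-test, from 0 (cohort 2 alone) to 49 (upper 50% of signals) beside 18 for 24SD (11 without 24SD replicate 32), from 0 to 3 beside 2 for 72SD, from 0 to 23 beside 1 for 24NES, from 1 to 4 beside 1 for 24SD against 24NES, and from 0 to 16 beside 3 for the cohort response. The upper 50% filter, at a signal of 443, left out Grm5, Grm8 and X96790_at, so it gives no value for them. No paired analysis was possible because each subject number belongs to 1 animal and is shared by no groups. The number of arrays limits the precision, most in NES and in HC of cohort 1.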
